A study of Branchiostoma lanceolatum with 6 samples.

Results

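The tailbud of the European amphioxus *Branchiostoma lanceolatum* was examined in a single-cell RNA-seq atlas of wild-type neurula embryos at 21 hours post-fertilization (hpf). Its cells were taken from the deposited annotation as those of the type tailbud, which are 279 of 14586 cells (1.91%) and form 4 metacells, small groups of cells with similar profiles, numbered 29 to 32 with 85, 73, 64 and 57 cells. They were set against all 14307 other cells, against the 211 cells annotated as neural tailbud, and against the 666 cells annotated as somite, called non-muscular somite here since muscular somites are a type of their own. All of these cells are wild type and of the same age, and they came from embryos that were dissociated and pooled before sorting. The cells cannot be placed in either of the 2 scRNA-seq samples, so each group is 1 sample without replicates, metacells are not replicates either, and no test was made. The types were named by the study from known markers after clustering on expression, so the levels given below describe these cells and do not test the clusters.

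The tailbud is the growth zone at the posterior end of the chordate embryo, from which notochord, somites and neural tube are extended after gastrulation. In vertebrates, canonical Wnt signalling and the T-box factor Brachyury keep its progenitors in place, and Cdx factors set posterior identity. In amphioxus, cells that express the germline genes *Vasa* and *Nanos* also lie in this region.

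The level of a gene is given as its unique molecular identifiers (UMIs), each standing for 1 captured mRNA molecule, summed over a group and divided by the group's total, per 10,000 UMIs. The intervals of levels are exact Poisson 95% intervals and cover counting error only. The tailbud cells held 571420 UMIs. The median cell had 1638 UMIs in the tailbud, against 3352 in neural tailbud, 3001.5 in non-muscular somite and 1246 in posterior epidermis. Depth also differed within the tailbud, with medians of 1161 and 1032 UMIs in metacells 29 and 30 and of 2965.5 and 2820 UMIs in metacells 31 and 32. Tailbud cells came from all 40 plates (1 to 17 cells on a plate, median 7), and no cell name occurred more than once. A list of 13 tailbud genes drew on those the study names for the tailbud and its somitic and neural parts. On the 9 plates with at least 10 tailbud cells, its summed level ranged from 32.5 to 125, with a median of 91.6.

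The 4 markers of the label were higher in tailbud than in each of the other 16 types. *Wnt1* (BLAG17000294), a secreted ligand of the Wnt pathway, had a level of 23.3 (22.1 to 24.6) in tailbud, 4.15 in neural tailbud, 5.11 in non-muscular somite and 1.02 in all other cells together. *Nanos* (BLAG03001558), a translational repressor of the germline, had 5.15 (4.57 to 5.77) in tailbud, 1.65 in neural tailbud, 1.13 in non-muscular somite and 0.301 in all other cells. *Noto* (BLAG03002070), a homeobox gene of the notochord and tailbud in vertebrates, had 2.85 in tailbud, 0.469 in neural tailbud, 0.117 in non-muscular somite and 0.0596 in all other cells. *Notum* (BLAG09000671), a secreted enzyme that inactivates Wnt ligands, had 0.928 in tailbud, 0.0551 in neural tailbud, 0.138 in non-muscular somite and 0.0512 in all other cells, and this level rests on 53 UMIs. The type with the next highest level differed from marker to marker. It was non-muscular somite for *Wnt1* and neural tailbud for *Nanos*. For *Noto* and *Notum* it was a small type or one of mixed name, Di-Mesencephalic primordium and epidermal/neural 1.

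**Figure D1:**
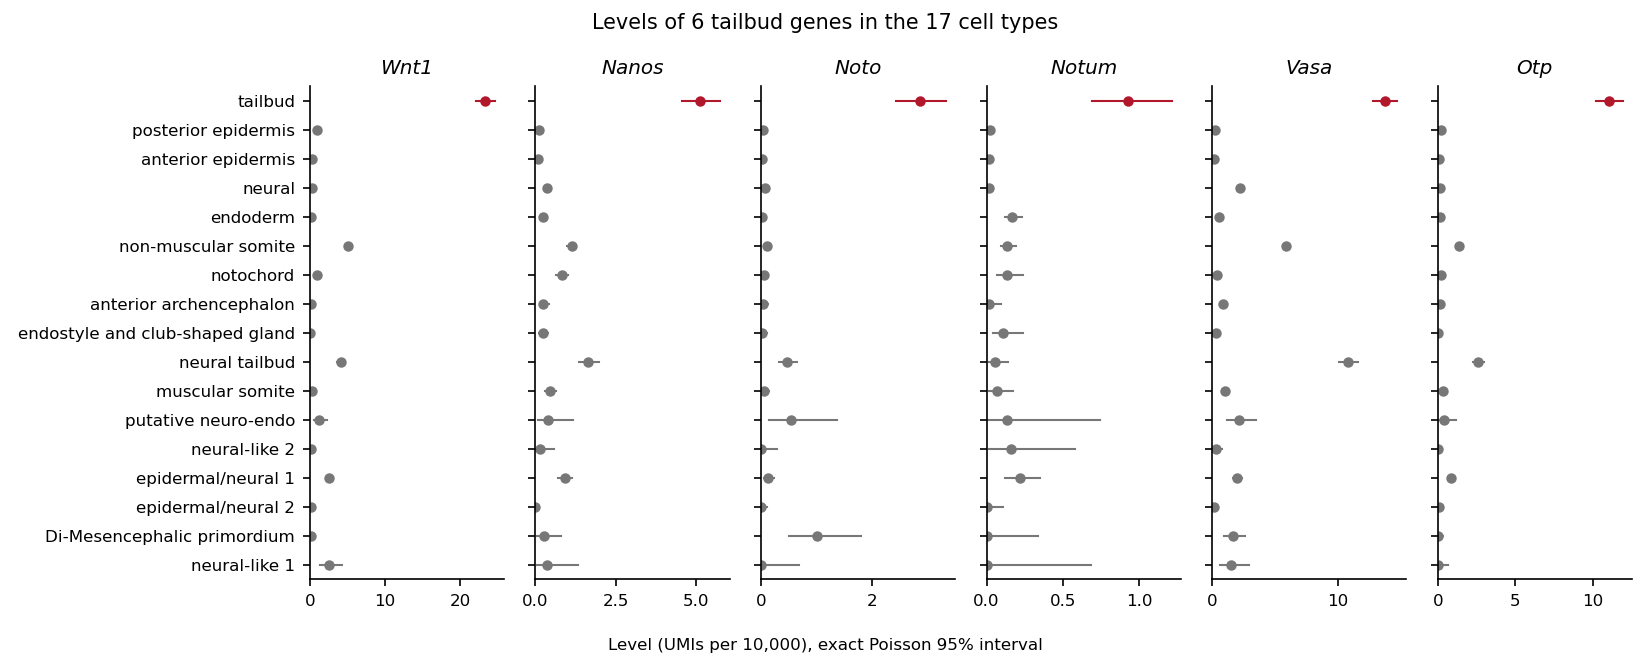
Levels (x axis, UMIs per 10,000) of *Wnt1*, *Nanos*, *Noto*, *Notum*, *Vasa* and *Otp* in the tailbud (red) and in the other 16 cell types (grey), with exact Poisson 95% intervals as bars; each panel has its own scale, which starts at 0. The tailbud holds the highest level in each panel, and neural tailbud comes near it only for *Vasa*, with 13.8 in tailbud and 10.8 in neural tailbud.

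The 4 metacells did not carry these markers alike. In metacells 29, 30, 31 and 32 the level of *Wnt1* was 21.6, 4.03, 23.4 and 34.5, that of *Nanos* was 3.27, 1.96, 7.05 and 5.87, and that of *Noto* was 2.37, 4.46, 3.22 and 1.898. *Notum* had 0.0910, 0.545, 0.204 and 2.47 in the same order, so that 43 of its 53 UMIs lay in metacell 32. By these levels metacell 30 had the highest *Noto* and the lowest *Wnt1* and *Nanos* of the 4. Its interval for *Noto* overlapped those of metacells 29 and 31, and its interval for *Nanos* that of metacell 29. Its *Wnt1* level of 4.03 (2.84 to 5.55) has an interval that includes the level of neural tailbud, 4.15, and that of non-muscular somite, 5.11. Of its 73 cells, 37 had no UMI of any of the 4 markers, which was so for 57 of all 279 tailbud cells.

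At least 2 of the 4 markers were detected in 130 tailbud cells (46.6%, Clopper-Pearson 95% interval 40.6 to 52.6), against 18.5% of neural tailbud cells, 13.8% of non-muscular somite cells and 0.428% of posterior epidermis cells, the type taken as background. Within the tailbud this share was 28.2% in metacell 29, 23.3% in metacell 30, 73.4% in metacell 31 and 73.7% in metacell 32, so the larger shares were those of the deeper metacells. A UMI of *Wnt1* was found in 66.3% of tailbud cells and 8.25% of posterior epidermis cells. For *Nanos* these shares were 41.2% and 1.497%, for *Noto* 28.3% and 0.565%, and for *Notum* 10.4% and 0.382%. After each cell had been thinned at random to 500 UMIs, which left out 7 tailbud cells and 548 posterior epidermis cells, they were 46.3% and 3.67% for *Wnt1*, 17.3% and 0.517% for *Nanos*, 8.46% and 0.333% for *Noto*, and 2.21% and 0.100% for *Notum*. Posterior epidermis is a poor background for *Wnt1*, which reached levels of 6.23, 5.80 and 5.66 in its highest metacells, 106, 126 and 100. Detection of *Wnt1* together with *Nanos* was seen in 93 tailbud cells, *Wnt1* without *Nanos* in 92, *Nanos* without *Wnt1* in 22, and neither in 72.

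Transcripts were spread unevenly over cells. Among 1332 *Wnt1* UMIs of the tailbud, 31 cells (11.1%) held 50%, and the cell with most had 58. For *Vasa*, too, 31 cells held 50% of its 786 UMIs. *Gsc* was more restricted, with 50% of its 303 UMIs in 10 cells (3.58%) and 27 in a single cell.

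Among 2811 genes that could be called, 487 (17.3%) were at least 2-fold higher in tailbud than in all other cells and 541 (19.2%) at least 2-fold lower, where a gene needed 50 UMIs on its higher side at the depth of the tailbud. Epidermis makes up 68.0% of the other cells, and against the unweighted mean of the other 16 types 222 genes were at least 2-fold higher. Only 24 of 2275 genes (1.05%) were at least 2-fold higher in tailbud than in every other type. For 9 of the 24 the next type was non-muscular somite, and for 7 it was neural tailbud. Among the 11 with a name, *ZNF79* (6.69-fold over the next type), *ZSCAN22* (5.30-fold), *Wnt1* (4.56-fold), *Notum* (4.27-fold) and *Otp* (4.23-fold) had the largest distance, followed by *Nanos*, *Noto*, *SF2 family helicase*, *NOBOX*, *DUXA* and *TBX2*. *ZNF79*, *ZSCAN22*, *NOBOX*, *DUXA* and *TBX2* are human transcription factor names attached to amphioxus gene IDs, and they serve here as labels of those IDs only. *NOBOX* (BLAG06001167) had a level of 8.96 in tailbud, against 0.587 in all other cells (15.3-fold), and *ZNF79* (BLAG14000798) had 1.65 in tailbud, against 0.0435 (37.8-fold). The largest folds over all other cells were those of *Noto* (47.9-fold, interval of the fold 38.6 to 59.4), *ZNF79* and *Otp* (36.5-fold). IDs without a name made up 9 of the 20 largest folds, led by BLAG09000677 (27.9-fold) and BLAG16001130 (23.7-fold).

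Of 10 genes of the Wnt pathway, 5 were at least 2-fold higher in tailbud than in all other cells and 1 was lower, against 17.3% and 19.2% of all genes that could be called. The median fold was 2.905, against 1.18 over all genes. Without metacell 32, 3 of the genes were called higher. *Notum* and *Wnt4* then had too few tailbud UMIs to be called, though their folds, given below, stayed above 2-fold. Wnt genes encode secreted ligands that act through Frizzled receptors and TCF factors. Besides *Wnt1* and *Notum*, the higher members were the ligands *Wnt4* (2.05 in tailbud, 0.391 in all other cells) and *Wnt8* (1.82 and 0.523), and the Wnt target gene *SP5* (3.85 and 1.32), which was at its highest in tailbud of all types. *Wnt6* had 0.298 in tailbud and 0.103 in all other cells, on 17 UMIs. On the side of inhibitors and receptors, the secreted antagonist *Sfrp1/2/5* was the lower member, with 0.193 in tailbud and 1.17 in all other cells, and the receptor *Fzd5/8*, an anterior gene in many animals, had 2 tailbud UMIs and a level of 0.0350, against 0.541. *TCF7L2*, which transcribes Wnt targets, had 2.24 in tailbud and 1.66 in all other cells.

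Wnt genes also set the metacells apart. *Wnt4* had 1.36, 0.762, 1.23 and 4.08 in metacells 29, 30, 31 and 32, so that it was high in metacell 32 together with *Wnt1* and *Notum*. The fold of *Notum* over all other cells fell to 4.91 without metacell 32, against 18.1 with it, and that of *Wnt4* to 2.96, against 5.24. *SP5* followed none of the ligands. It had 2.82, 7.62, 3.58 and 2.82 and was highest in metacell 30, where *Wnt1* was lowest.

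**Figure D2:**
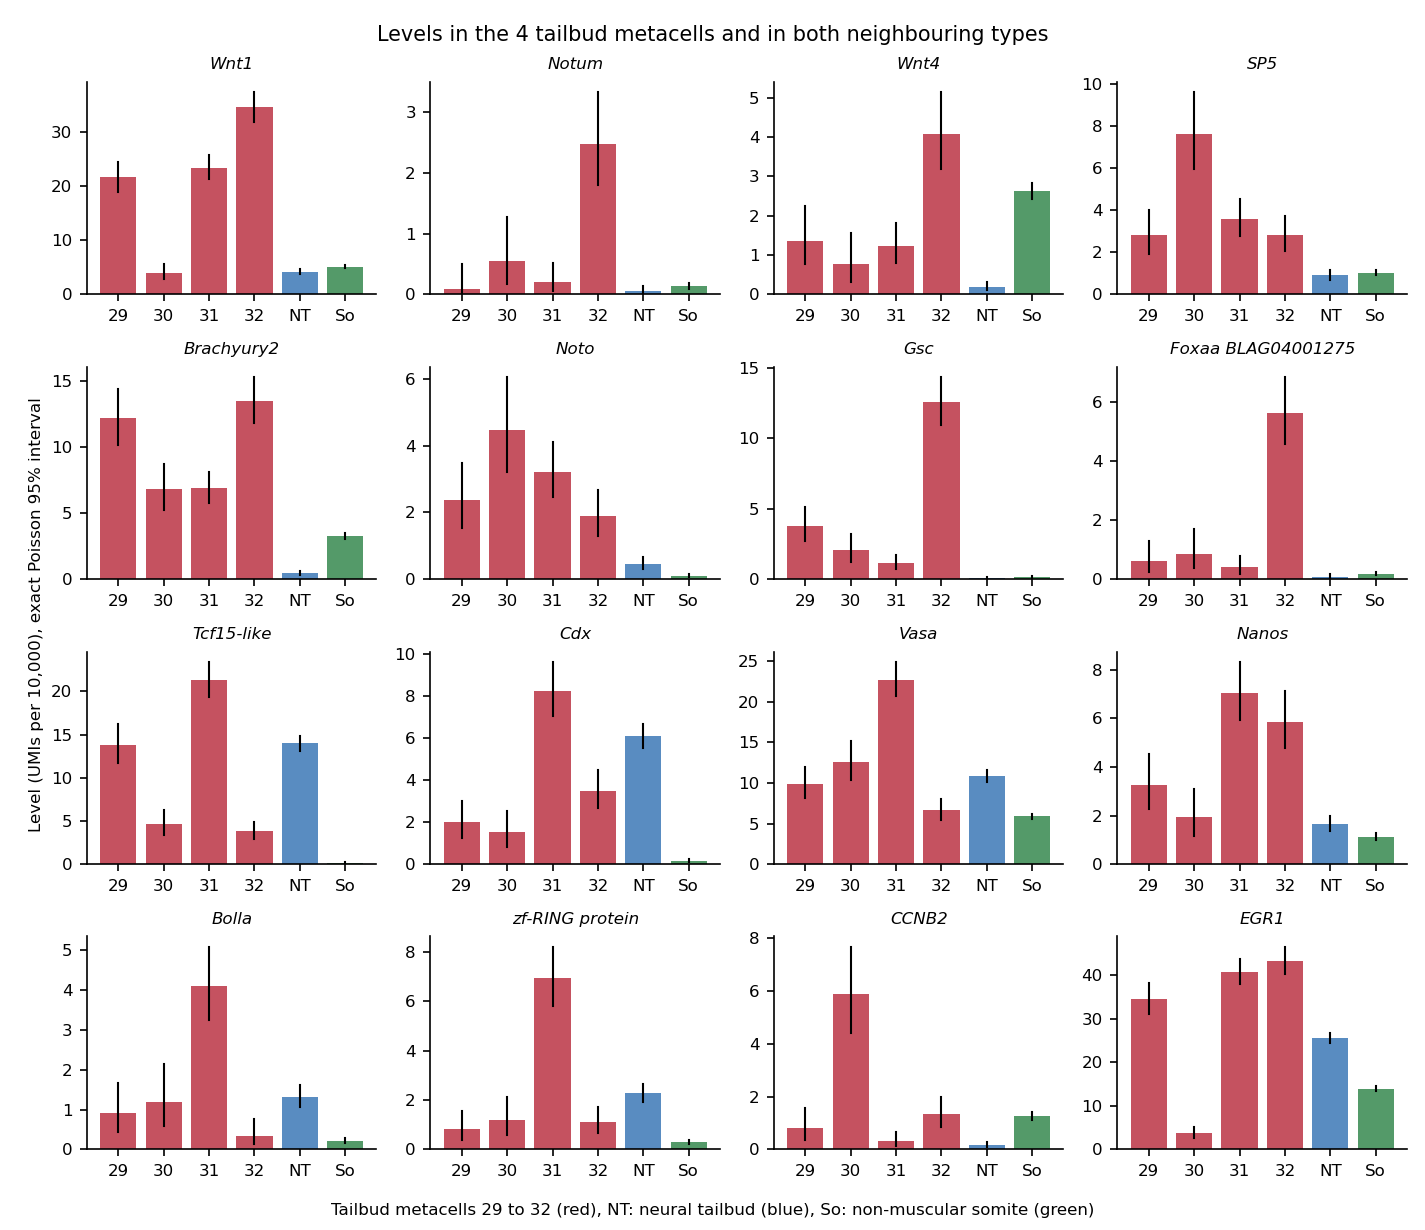
Levels (y axis, UMIs per 10,000) of 16 genes in tailbud metacells 29 to 32 (red), in neural tailbud (NT, blue) and in non-muscular somite (So, green), with exact Poisson 95% intervals as bars; each panel starts at 0. *Gsc* and *Foxaa* stand out in metacell 32 with 12.6 and 5.64, *Vasa*, *Bolla* and the *zf-RING protein* in metacell 31 with 22.7, 4.09 and 6.95, and *CCNB2* in metacell 30 with 5.88, while *EGR1* is low there with 3.70.

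Of 11 germline and RNA-binding genes, 5 were at least 2-fold higher in tailbud than in all other cells and none was lower, against 17.3% and 19.2% of all genes called. Their median fold was 1.86, against 1.18 over all genes. Without metacell 31, 3 were called higher. *Bolla* and the *zf-RING protein* then had too few tailbud UMIs to be called, though their folds, given below, stayed above 2-fold. The 5 were *Nanos* and *Vasa* (BLAG03002073), an RNA helicase of the germline with 13.8 in tailbud and 1.20 in all other cells, *Bolla* (BLAG10000256) with 1.87 and 0.0746 (25.1-fold), the *SF2 family helicase* with 2.91 and 0.179, and the *zf-RING protein* with 3.06 and 0.192. All 5 had their highest level of the 17 types in tailbud, and neural tailbud came second for each but the helicase. The members that are expressed in many tissues were between 1.13-fold (*IGF2BP1*) and 1.71-fold (*CAPRIN1*). *Bicc*, which the study describes as a tailbud marker, had 0.543 in tailbud and 0.292 in all other cells. It was lower in tailbud than in non-muscular somite, where its level was 1.71.

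Within the tailbud these genes were concentrated in metacell 31. *Vasa* had 9.92, 12.6, 22.7 and 6.67 in metacells 29, 30, 31 and 32. *Bolla* had 0.910, 1.20, 4.09 and 0.345, with 80 of its 107 UMIs in metacell 31, and the *zf-RING protein* had 0.819, 1.20, 6.95 and 1.09. The *SF2 family helicase*, with 1.001, 2.07, 4.09 and 3.22, and *Nanos* were high in metacells 31 and 32 alike. Of the 64 cells of metacell 31, 61 had a UMI of *Vasa* and 33 a UMI of *Bolla*, against 39 and 6 of the 57 cells of metacell 32, which is of similar depth. Without metacell 31 the folds over all other cells were 9.63 for *Bolla* (25.1 with it), 5.41 for the *zf-RING protein* (15.97 with it) and 7.54 for *Vasa* (11.4 with it). Over the whole tailbud 86 cells had both *Nanos* and *Vasa*, 29 *Nanos* alone, 88 *Vasa* alone, and 76 neither.

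Of 18 transcription factors of axial and paraxial mesoderm, 11 were at least 2-fold higher in tailbud than in all other cells and 1, *Gata1/2/3*, was lower. This compares with 17.3% and 19.2% of all genes called. Only 13 of the 18 had enough UMIs to be called, and a gene of low level elsewhere has them only if it is high in tailbud. The median fold of the 18 was 2.98. *Brachyury2* (BLAG01001008) had a level of 9.92 in tailbud, against 6.96 in notochord, 3.29 in non-muscular somite and 0.455 in neural tailbud. Its neighbour in the gene numbering, *T* (BLAG01001009), is a near-identical copy, so reads may have been split between them; its level was 0.648 in tailbud and 1.70 in notochord. *Gsc* (BLAG04000892), a homeobox gene of the vertebrate organizer, had 5.30 in tailbud and came second to endostyle and club-shaped gland, with 7.12. The repressors *Vent1* and *Vent2* came second to notochord, with 6.86 and 11.4 in tailbud against 11.4 and 16.3 in notochord. *Eomes/Tbr1/Tbx21*, a T-box gene, was highest in tailbud with 3.76, though non-muscular somite had 3.23. *Tcf15-like* (BLAG10000671), a bHLH gene, had 11.9 in tailbud and 14.0 in neural tailbud, and 0.188 in non-muscular somite.

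These factors fell into different metacells. *Gsc* had 3.82, 2.07, 1.17 and 12.6 in metacells 29, 30, 31 and 32, and 34 of the 58 cells with a UMI of it lay in metacell 32. The 2 genes named *Foxaa*, forkhead genes of notochord and endoderm, had 1.36, 1.74, 0.511 and 6.04 (BLAG04001273) and 0.637, 0.871, 0.409 and 5.64 (BLAG04001275), so that metacell 32 held about the level of the notochord, 6.12 and 6.14. Without metacell 32 the fold over all other cells was 2.78 for *Gsc* (6.97 with it), 1.28 for *Foxaa* BLAG04001273 (3.17 with it) and 1.09 for *Foxaa* BLAG04001275 (4.01 with it). *Brachyury2* was more even, with 12.2, 6.86, 6.90 and 13.5. *Tcf15-like* had the opposite pattern to *Gsc* in the deeper metacells, with 13.8, 4.68, 21.3 and 3.85. Both *Wnt1* and *Brachyury2* were detected in 131 of 279 cells.

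Of 6 posterior homeobox genes, 4 were at least 2-fold higher in tailbud than in all other cells and none was lower, against 17.3% and 19.2% of all genes called, with a median fold of 3.66. *Otp* (BLAG02001062), known from the hypothalamus of vertebrates and from the tailbud of amphioxus, had 11.01 in tailbud, 2.61 in neural tailbud, 1.35 in non-muscular somite and 0.301 in all other cells, and its metacells had 11.6, 5.55, 15.3 and 8.74. *Cdx* (BLAG06000695), which sets posterior identity, had 4.53 in tailbud, 6.11 in neural tailbud and 0.175 in non-muscular somite, and metacell 31 held 8.27 of it, against 2.001, 1.52 and 3.51 in metacells 29, 30 and 32. *Hox3* had 1.56 in tailbud and 0.369 in all other cells. A second ID with a Cdx name, *CDX4* (BLAG08000847), had 4.69 in tailbud and 3.43 in all other cells, and *EVX2* had 0.333 and 0.216.

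Other signalling genes stood near the background of 17.3% higher and 19.2% lower. Of 9 Notch pathway genes 1 was higher in tailbud than in all other cells and 2 were lower, with a median fold of 0.9001. The ligand *Delta* had 0.910 in tailbud and 0.397 in all other cells, while the target-type repressors *HEY1* (0.455 and 1.88) and *HES1* BLAG11000525 (1.21 and 6.83) were the lower ones. Of 10 genes of BMP, Nodal and Fgf signalling, *BMP7* was higher (1.14 and 0.539) and the pseudoreceptor *BAMBI* lower (0.350 and 0.882). The ligand *Fgf8/17/18* had only 10 tailbud UMIs, at a level of 0.175, against 0.0314 in all other cells. *Myc* had 3.20 in tailbud and 1.38 in all other cells, whereas its partner *Max* had 2.92 and 2.60.

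Genes of the cell cycle and of DNA replication were higher in tailbud than in all other cells for 16 of 20 members, against 17.3% of all genes called, with none lower and a median fold of 3.02. Without metacell 30 this count was 10 of 20. The members of this list and of the ribosome list were chosen by the study as markers that endoderm shares with other animals, not for the tailbud, and they carry the names of human genes. *PCNA*, the sliding clamp of DNA polymerase, had 2.96 in tailbud and 0.499 in all other cells, *CHAF1A*, a histone chaperone of replication, 2.07 and 0.484, and *INCENP*, a centromere protein, 1.73 and 0.441. Against the mean of the other 16 types 8 of the 20 were at least 2-fold higher. None of the 20 had its highest level in tailbud. *PCNA* was higher in endostyle and club-shaped gland (3.38), and *TPX2*, a spindle protein, was higher in endoderm (2.82, against 2.1 in tailbud). The summed level of the 20 genes was 35.8, 56.7, 31.7 and 34.6 in metacells 29, 30, 31 and 32, against 12.6 in neural tailbud and 28.9 in non-muscular somite. Of 20 ribosome biogenesis genes, 7 were at least 2-fold higher in tailbud than in all other cells (4 without metacell 32). Against the mean of the other types 0 were, and 0 were against either neural tailbud or non-muscular somite. None of 47 ribosomal protein genes passed 2-fold in either direction.

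**Figure D3:**
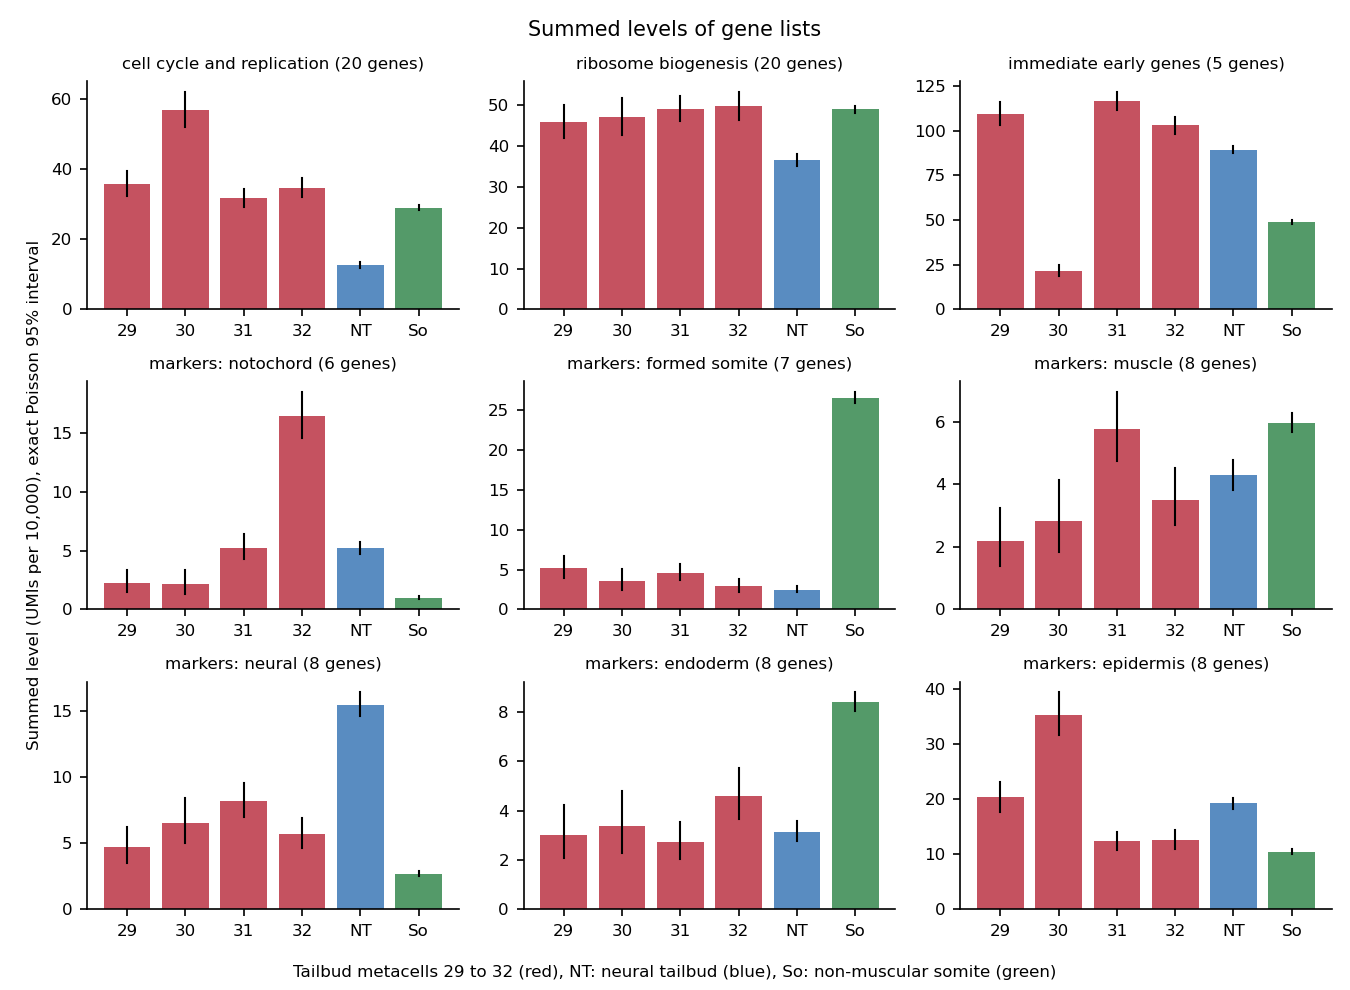
Summed levels (y axis, UMIs per 10,000) of 9 gene lists in tailbud metacells 29 to 32 (red), in neural tailbud (NT, blue) and in non-muscular somite (So, green), with exact Poisson 95% intervals as bars; each panel starts at 0. Metacell 30 has the most cell cycle transcripts (56.7), the fewest of the immediate early genes (21.6) and the most of the epidermis markers (35.3), and metacell 32 has the most of the notochord markers (16.4).

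The comparison with neural tailbud asks what separates the tailbud from the neural cells of the same region. Of 3014 genes, 167 (5.54%) were at least 2-fold higher in tailbud and 256 (8.49%) at least 2-fold lower. Of the 10 largest folds, 4 were those of the axial and paraxial factors *Gsc*, *Foxaa* BLAG04001275, *Brachyury2* and *Twist-like*, and 3 those of IDs without a name. *Gsc* had 5.30 in tailbud and 0.0689 in neural tailbud (76.9-fold, on 5 neural tailbud UMIs), *Foxaa* BLAG04001275 had 2.12 and 0.0827 (25.6-fold), *Brachyury2* had 9.92 and 0.455 (21.8-fold), and the bHLH gene *Twist-like* had 0.980 and 0.0551 (17.8-fold). *ZNF79* (39.8-fold), *KLF18* (31.2-fold) and *Notum* (16.8-fold) were the other 3. Of the 18 axial and paraxial factors 8 were higher and none lower, and of the Wnt genes 5 of 10 were higher and none lower, with *Wnt1* 5.62-fold, *Wnt4* 10.6-fold and *SP5* 4.23-fold.

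Of the 20 cell cycle genes, 18 were higher in tailbud than in neural tailbud and none was lower, against 5.54% and 8.49% of all genes called. Their median fold was 3.84, against 1.0 over all genes. *CCNB2*, a mitotic cyclin, had 1.61 in tailbud and 0.152 in neural tailbud, *LIG1*, a DNA ligase of replication, 0.875 and 0.0827, and *PCNA* 2.96 and 0.303. Over all genes, 110 were higher in tailbud than in neural tailbud without metacell 30, in place of 167. The cell cycle genes were not counted apart in that comparison.

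Genes lower in tailbud than in neural tailbud included *ZNF467*, a human zinc finger name (0.385 in tailbud, 8.57 in neural tailbud), *PAX5* (0.228 and 2.07), the RNA-binding neuronal gene *Elav* (0.858 and 5.06), and *Soxb1c*, a SoxB1 gene of the neural plate (1.21 and 3.56). Of 8 neural markers, 2 were at least 2-fold lower and none higher, against 8.49% and 5.54% of all genes called. Genes shared by both types were *Tcf15-like*, *Cdx*, *Vasa* and *Bolla*, with folds between 0.742 and 1.42, whereas *Nanos* was 3.11-fold and *Otp* 4.23-fold higher in tailbud. Without metacell 31, 417 genes were lower in tailbud than in neural tailbud, in place of 256.

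Non-muscular somite pools all its metacells, not only those most like the tailbud. Its metacells 26 and 27 held 562465 and 561975 of its 2398658 UMIs. Their summed level of the 13 tailbud genes was 6.10 and 10.1, against 82.2 and 41.2 in its metacells 24 and 23. Against this pooled type, 222 of 4061 genes (5.47%) were at least 2-fold higher in tailbud and 465 (11.5%) at least 2-fold lower. The lower count includes genes that reached 50 UMIs only in the deeper somite cells, and 189 genes remained lower where 50 UMIs were asked at the depth of the tailbud. *Tcf15-like* had the largest fold of all, with 11.9 in tailbud and 0.188 in non-muscular somite (63.3-fold). *Gsc* (28.9-fold), *SOX2*, a SoxB1 name (2.14 in tailbud and 0.0792 in somite, 27.0-fold), *Cdx* (25.9-fold), *Noto* (24.4-fold) and the guidance factor *Netrin* (21.8-fold) followed. *Wnt1* was 4.56-fold higher, *Otp* 8.15-fold and the *zf-RING protein* 10.2-fold.

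All 7 markers of formed somites were at least 2-fold lower in tailbud than in non-muscular somite, against 11.5% of all genes called. As markers of somites they were picked to be high in that type. *Ripply*, which ends segmentation programmes at the somite boundary in vertebrates, had 0.0875 in tailbud and 5.45 in non-muscular somite, *Gata1/2/3* 0.333 and 7.09, the homeobox gene *Alx* 0.105 and 2.36, and *Foxc*, a forkhead gene of paraxial mesoderm, 0.210 and 2.71. Of the 18 axial and paraxial factors 6 were higher and 7 lower, against 5.47% and 11.5% of all genes called. Of the Wnt genes 3 were higher (*Wnt1*, *Notum* and *SP5*) and 3 lower (*Wnt16*, *Sfrp1/2/5* and *Fzd5/8*), so that the antagonist *Sfrp1/2/5* had 0.193 in tailbud and 4.00 in somite. *Wnt4* and *Wnt8* differed less, with folds of 0.781 and 0.816. Unlike against neural tailbud, cell cycle genes were mostly within 2-fold, with 3 of 20 higher, 1 lower and a median fold of 1.41, against 1.12 over all genes. Without metacell 31, 147 genes were higher in tailbud than in non-muscular somite, in place of 222.

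**Figure D4:**
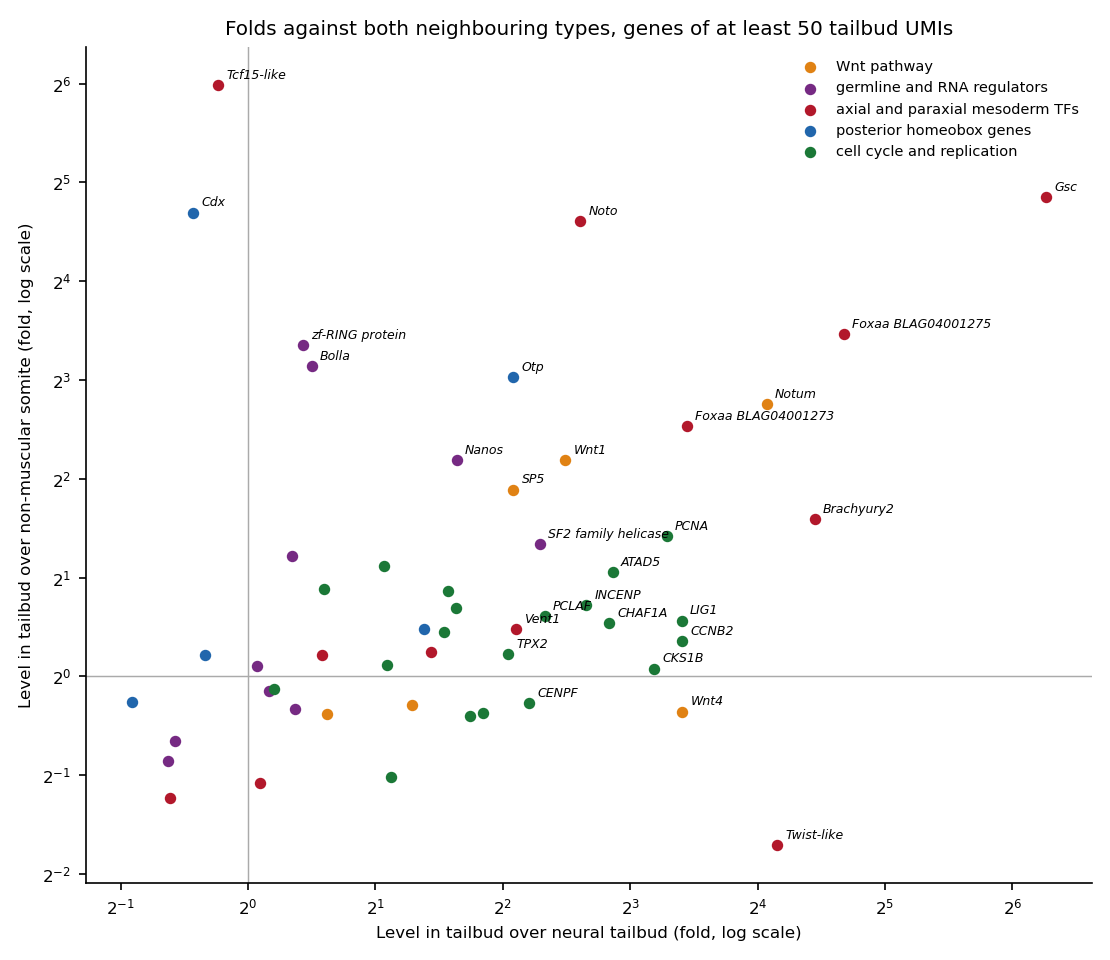
Fold of the level in tailbud over that in neural tailbud (x axis, log scale) and over that in non-muscular somite (y axis, log scale) for genes of 5 lists with at least 50 tailbud UMIs; each point is a gene, coloured by list, and grey lines mark equal levels. *Gsc* is far from both types (76.9 and 28.9), and *Tcf15-like* and *Cdx* differ from somite only (63.3 and 25.9). The cell cycle genes (green) lie to the right of the vertical line and near the horizontal one.

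Among the 4 tailbud metacells, 385 of 771 genes (49.9%) with at least 50 UMIs in their highest metacell differed by at least 2-fold between highest and lowest metacell, with intervals that did not overlap. Of these 148 were highest in metacell 32, 146 in metacell 31, 60 in metacell 30 and 31 in metacell 29. Metacell 30 was the lowest for 189 of them, and without it 232 genes differed. The split depends on depth, since a gene reaches 50 UMIs at a lower level in a metacell with more UMIs. Metacells 29, 30, 31 and 32 held 109929, 91826, 195774 and 173891 UMIs. Among the 10 genes with the largest ratio, 4 have a name. *EBF3*, a human name of an Ebf factor, had 1.64, 1.96, 7.41 and 0.288 in metacells 29, 30, 31 and 32, *CCNB2* had 0.819, 5.88, 0.306 and 1.32, and the others were *Foxaa* BLAG04001275 and *Bolla*. Outside these 10, and chosen after their values had been seen, *POU3F4* had 1.73, 10.5, 4.04 and 0.920, *Pax3/7* BLAG11000799 had 1.82, 0.762, 1.89 and 8.05, and *Netrin* had 1.36, 0.980, 4.29 and 7.82.

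Metacell 31 and metacell 32, which are of similar depth, thus held different genes. *Tcf15-like*, *Cdx*, *Vasa*, *Bolla*, the *zf-RING protein* and *EBF3* were higher in metacell 31, and *Gsc*, both *Foxaa* genes, *Notum*, *Wnt4*, *Brachyury2* and *Pax3/7* in metacell 32. Of 6 notochord markers the summed level was 16.4 in metacell 32, against 2.27, 2.18 and 5.26 in metacells 29, 30 and 31. That of metacell 32 was made up mostly of *Netrin* and *Foxaa* BLAG04001275. *Tenascin*, an extracellular matrix gene with 6.55 in notochord, had 0.173 in metacell 32, *Mnx* had 0.978 and 3.88 in notochord, and *Chordin*, a BMP antagonist, 1.27 and 3.16. Spearman correlation over 14447 genes is given as a description, since profiles share depth and abundant genes. By it the metacell 31 profile was nearest to neural tailbud (0.864) and that of metacell 32 to non-muscular somite (0.856). Metacell 31 also had 0.850 with neural and 0.849 with non-muscular somite, and metacell 32 had 0.828 with neural tailbud. Non-muscular somite was the nearest type for metacells 29 (0.783) and 30 (0.730) too. The whole tailbud had 0.895 with non-muscular somite, 0.883 with neural tailbud, 0.879 with the type neural, 0.863 with endoderm and 0.857 with notochord.

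Metacell 30 differed from the others in several gene groups at once. Of the 20 cell cycle genes 11 were highest in it and 2 were lowest. Of 4 members chosen after their values had been seen, 3 were high in it, *CCNB2* at 5.88, *INCENP* at 5.66 (0.819, 1.07 and 0.978 in metacells 29, 31 and 32) and *TPX2* at 4.57 (1.36, 1.63 and 1.78), while *PCNA* was highest in metacell 29 (4.82, 3.59, 2.25 and 2.24). Immediate early genes, which respond to stimuli within minutes and also to handling of cells, were low in it. *EGR1* had 34.5, 3.70, 40.7 and 43.4 in metacells 29, 30, 31 and 32, *JUN* had 48.7, 10.02, 47.3 and 35.3, and *FOSL1* had 22.3, 4.03, 22.2 and 18.5. Its epidermal keratin level was the highest, with *Krt75* at 19.2, against 9.92, 5.21 and 7.13 in metacells 29, 31 and 32 and 210 in posterior epidermis.

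Plates also varied with metacell 30, since 27 of its 73 cells came from 3 plates, chosen because they held most of them. On these plates its *Wnt1* level was 3.51, against 15.0 in the 7 other tailbud cells there, its *EGR1* level was 4.01, against 16.7, and its *CCNB2* level was 7.53, against 1.70. On all other plates metacell 30 had 4.43 of *Wnt1*, 3.46 of *EGR1* and 4.62 of *CCNB2*, and the 199 other tailbud cells had 27.8, 41.8 and 0.733. The directions of these genes, and of *JUN*, *FOSL1*, *INCENP*, *Krt75* and *Noto*, were the same on both sets of plates. On the 3 plates, however, the intervals of metacell 30 and the 7 other cells overlapped for *JUN*, *FOSL1* and *Noto*. *Krt75* also differed between plates. It had 25.1 in metacell 30 and 15.0 in the 7 other cells, against 14.6 and 6.46 on all other plates. In all cells but tailbud it had 221 on the 3 plates and 119 on the others. The median depth on the 3 plates was 1461 UMIs in metacell 30 and 4165 UMIs in the 7 other cells. The part of depth, plate, cell cycle and stress-type genes in the profile of metacell 30 was not tested.

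Markers of epidermis and endoderm were low in the tailbud as a whole, and those of notochord were uneven. The summed level of 8 epidermis markers was 17.7 in tailbud, 19.2 in neural tailbud, 10.5 in non-muscular somite and 234 in all other cells, and 7 of the 8 were at least 2-fold lower than in all other cells. Of 8 endoderm markers 4 could be called, of which 3 were lower and none higher, against 19.2% and 17.3% of all genes called, with a summed level of 3.45 in tailbud and 8.09 in all other cells. *Neurogenin* and *Tcf23/24* had no tailbud UMI, nor had the myogenic factor *Mrf2a*. In 571420 UMIs a count of 0 allows a level of up to 0.0525, for counting error only. The 6 notochord markers had a summed level of 7.60 in tailbud and 2.86 in all other cells, and the 2 that could be called were higher. These were *Netrin* (4.27) and *Foxaa* BLAG04001275 (2.12), and *Netrin* was highest in Di-Mesencephalic primordium (7.52). *Tenascin*, *Mnx*, *Crtac1a* and *Chordin* had 0.0525, 0.473, 0.228 and 0.455 in tailbud, against 6.55, 3.88, 4.37 and 3.16 in notochord. The 7 formed somite markers had 4.04 in tailbud and 4.42 in all other cells. Of the 3 that could be called, 2 were higher in tailbud and 1 was lower. The muscle list had a summed level of 3.92 in tailbud and 4.75 in all other cells. In tailbud *Mef2*, a broadly expressed muscle factor, made up 3.41 of this.

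The 13 listed tailbud genes were summed in every metacell to see where else they occur. The list draws on genes that the study names for the tailbud, for its somitic part and for the posterior neural plate. High sums in tailbud, somite and neural tailbud metacells are therefore in part built into the list, and the ranks of the tailbud metacells are only a description. Metacells 31 and 32 ranked first and second of 176, with 95.8 and 83.2, followed by a somite metacell, 24, with 82.2 and by metacell 29 with 66.2. Another somite metacell, 23, was next to metacell 30 (42.3) with 41.2. In metacell 24 *Wnt1* had 25.0, *Vasa* 14.4, *Nanos* 5.51, *Otp* 6.57, *Brachyury2* 9.41 and *Wnt4* 8.18, all within the range of the tailbud metacells or above it. *Bicc* (3.62), *Wnt6* (2.84) and the *SF2 family helicase* (4.01) were above their levels in the whole tailbud, 0.543, 0.298 and 2.91. *Bolla* (0.445), the *zf-RING protein* (1.61) and *Noto* (0.668) were below theirs, and *Notum* had no UMI. Outside the 13 genes, and picked after their values had been seen, *Tcf15-like* (0.724), *Gsc* (0.111) and *Cdx* (0.223) were also below. The summed level of the formed somite markers in metacell 24 was 22.9, against 5.19, 3.59, 4.60 and 2.93 in metacells 29, 30, 31 and 32. Among them were *Twist-like* at 13.7 and *Snail* at 5.73, but *Ripply* at only 0.167. The neural tailbud metacells 52 and 51 had 29.6 and 20.32 for the 13 genes. These near metacells were picked after their values had been seen.

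**Figure D5:**
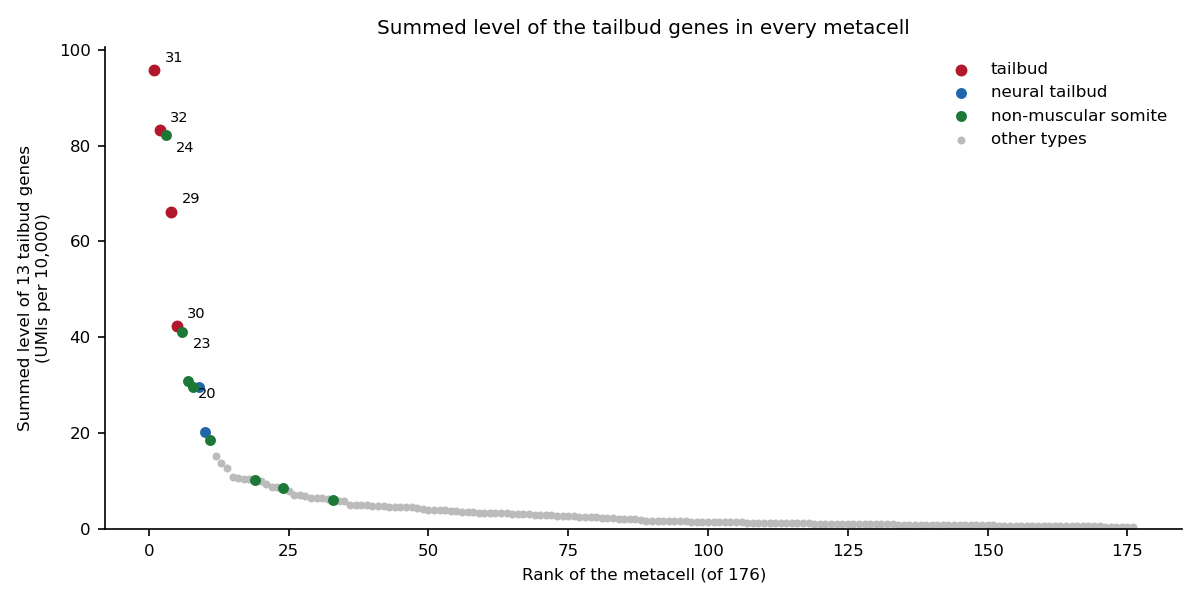
Summed level (y axis, UMIs per 10,000) of the 13 listed tailbud genes in each of the 176 metacells, ordered by that level (x axis, rank). Tailbud metacells are red, neural tailbud blue, non-muscular somite green and other types grey, and the first 7 are numbered. The 4 tailbud metacells lie between 42.3 and 95.8, with somite metacells 24 (82.2) and 23 (41.2) among or next to them.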

How the data were processed

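40 plates of 384 wells of single cells were made by MARS-seq from pooled wild-type embryos at 21 hpf after dissociation and sorting. The authors mapped the reads to the *B. lanceolatum* genome with STAR, counted UMIs over exons after an error filter and grouped the cells into metacells. They deposited the UMI counts of 27073 genes, not normalized, for 14586 cells, and a table with the metacell and cell type of each cell. Their deposited fold changes of genes in metacells were not used. Doublets were removed by the authors only through the sorting gates, and no doublet caller was run. The 2 scRNA-seq samples are not marked in the cell names, so all cells form 1 pooled sample, and plates are technical batches.

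Here UMI counts were summed per group and given per 10,000 UMIs with exact Poisson 95% intervals, and shares of cells have Clopper-Pearson 95% intervals. A fold is the level in tailbud over that of the reference, with 0 UMIs set to a floor of 3. A gene was called at a fold of 2 with at least 50 UMIs on the higher side. For the comparison with all other cells these UMIs were taken at the depth of the tailbud, a step added after simulated data had shown calls made by unequal depth. List medians leave out genes under 200 UMIs over all cells. No p-value was computed, since cells of 1 sample are not replicates. Thinning drew 500 UMIs per cell with seed 1.

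Every gene of 18 lists (194 genes) could be named, besides the genes with the 20 largest folds over all other cells, the 10 largest folds each way against neural tailbud and non-muscular somite, and the 10 largest ratios between metacells, where the study prints a name for the ID. Of the IDs 519 have such a name. 1 result of a listed gene was left out and is not reported here. *PLAT*, named for a human protease, was left out of the counts and medians of the Wnt list after the values had been seen, and stays in its summed levels. The annotation in hand holds none of these IDs, so no sequence or position is given. The members and lists were chosen with earlier results of these data known. Alternatives were another UMI minimum, fold threshold or reference, a mean over cells, and leaving out shallow cells, deep cells (over 4 times the median of their type), each metacell or the plate with most tailbud cells. The work used Python 3.11.15, numpy 2.4.6, scipy 1.17.1, pandas 2.3.3 and matplotlib 3.10.9.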

Additional observations from a re-analysis of the deposited data

How the results depend on the processing

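No paired analysis was possible because the cells cannot be placed in the 2 samples and no comparison between samples was made. With a minimum of 20 UMIs in place of 50, 1063 genes were higher in tailbud than in all other cells (487 with 50), 452 higher and 566 lower than in neural tailbud (167 and 256), 598 higher and 770 lower than in non-muscular somite (222 and 465), 42 highest by 2-fold over every type (24), and 891 differed among the metacells (385). At 3-fold in place of 2-fold these counts were 195, 96, 80, 95, 249, 13 and 205, and 32 of the 194 listed genes were higher than in all other cells, in place of 52. Against the mean of the other 16 types 222 genes and 32 listed genes were higher. Leaving out metacell 30 gave 110 genes higher than in neural tailbud and, as an alternative added after the data were seen, 232 that differed among metacells. Leaving out metacell 31 gave 417 lower than in neural tailbud and 147 higher than in non-muscular somite. Asking for 50 UMIs at the depth of the tailbud, also added later, gave 189 lower than in non-muscular somite. Thinning to 500 UMIs gave shares of 46.3% for *Wnt1*, 17.3% for *Nanos*, 8.46% for *Noto* and 2.21% for *Notum*. Leaving out a metacell also removes its UMIs, so genes can miss the minimum of 50 tailbud UMIs whatever their fold. The cause of the changes with the metacells was not tested. Among the folds of listed genes over all other cells under alternatives, 1382 stayed within their interval, 364 moved beyond it, and no called fold changed direction. Depth limits the levels that rest on few UMIs, among them those of *Notum*, *Wnt6* and *Fgf8/17/18*, with 53, 17 and 10 tailbud UMIs.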

Other observations

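Several of the tailbud-restricted genes lie close to each other in the gene numbering of the annotation. Of the 13 IDs without a name among the 24 genes at least 2-fold higher in tailbud than in every other type, 3 have consecutive numbers. Their folds over all other cells were 22.9, 14.7 and 16.9, and over the next type, neural tailbud for each, 3.53, 3.30 and 5.03. This was noticed after the values had been seen, and whether the 3 IDs share reads or sequence was not tested.

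Translation genes were also summed in the somite metacells near the tailbud. Summed over 20 ribosome biogenesis genes, the 4 tailbud metacells 29 to 32 had 45.8, 47.0, 49.1 and 49.7, against 65.7 (62.0 to 69.6) in somite metacell 24 and 51.4 (49.3 to 53.7) in somite metacell 23. The interval of metacell 23 overlaps those of tailbud metacells. Metacell 24 also had 8.18 of *Wnt4* and 13.7 of *Twist-like*, against at most 4.08 and 2.001 in a tailbud metacell. Of the 47 ribosomal protein genes, the summed level was 588, 535, 417 and 428 in metacells 29 to 32, against 501 and 468 in somite metacells 24 and 23, which lie within that range, and 386 and 340 in the neural tailbud metacells 51 and 52.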
